A study of Mus musculus with 7 samples.

Results

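Expression of the chemokine receptor genes other than Cxcr5 was followed in regulatory T cells from mice with floxed Id2 and Id3, namely of Ccr2, Ccr4, Ccr6, Ccr7, Ccr8, Ccr9, Cxcr3, Cxcr4 and Cxcr6. They are 9 of the 39179 genes in the deposited table and were chosen by symbol. Regulatory T cells are CD4 T cells that express the transcription factor Foxp3 and restrain immune responses. Here they were sorted as CD4+ TCRb+ CD25hi Foxp3+ cells from lymph nodes of C57BL/6 mice aged 3 weeks, and their messenger RNA was sequenced. The replicated comparison set 3 double-knockout (dKO) libraries, of genotype Id2fl/fl Id3fl/fl Foxp3cre, against 2 control libraries, of genotype Id2fl/+ Id3fl/+ Foxp3cre. Both groups thus carry the Cre recombinase driven by Foxp3, which acts in Foxp3-expressing cells, and the controls also carry 1 floxed allele of each gene. Beside it stands a pair of unnumbered libraries, 1 titled control and 1 titled dKO, whose genotype tags are the reverse of their titles, so each is called here by its title. Whether a library came from 1 animal or a pool was not given in the sources used here, so the p-values reflect library-to-library spread, some of which may be technical.

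Chemokine receptors are G protein-coupled receptors that let a cell move towards a chemokine, and the set of receptors a T cell carries sets where it can go. Ccr7 brings T cells into lymph nodes, Cxcr4 answers the stromal chemokine CXCL12, and Cxcr3, Ccr2, Ccr6 and Cxcr6 are carried by effector or memory cells that enter inflamed or barrier tissue. Ccr4 and Ccr8 are common on activated regulatory T cells and on cells bound for the skin, and Ccr9 leads cells to the small intestine. Id2 and Id3 hold back E proteins, transcription factors that bind the DNA motif CANNTG, called the E-box.

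The abundance values of the replicated comparison are the authors' means per group, without an SD, of reads scaled by library size factors, and are called scaled counts. They summed to 3.90e+07 in control and 3.99e+07 in dKO. In the authors' deposited table Id2 went from 783 scaled counts in control to 61.1 in dKO (log2 ratio -3.68, adjusted p 1.48e-08), and Id3 from 1376 to 891 (log2 ratio -0.63, adjusted p 0.209). The defining transcripts of the sorted cells were high in both groups of the authors' deposited table, with Foxp3 at 13481 in control and 10942 in dKO, Il2ra at 32376 and 32126, and Cd4 at 26431 and 32790. Of the 10 genes of that marker list 1 passed the test, Ctla4, at 13258 in control and 26706 in dKO in the authors' deposited table. Of the markers of other cells, 0 myeloid, 0 B cell and 0 stromal genes were called by DESeq and none was under an unadjusted p of 0.05. Their summed levels were 128 in control and 147 in dKO for 9 myeloid genes (S100a8 listed at 0 in control and S100a9 in dKO) and 1010 and 1091 for 8 B cell genes, of which Cd79b made up 894 and 1006. The dendritic cell list, 8 genes, stood at 210 and 167, with Xcr1 called lower and Clec9a at 0 in control. The plasma cell list, 5 genes, summed to 3856 in control and 7454 in dKO, most of it Xbp1 (3750 and 6388, adjusted p 0.156 in the authors' deposited table), with Tnfrsf17 at 0 in dKO. Mzb1 of that list rose from 11.2 to 905 scaled counts, a log2 ratio of 6.34 (adjusted p 1.37e-11 in the authors' deposited table) that is larger than that of any of the 9 receptors. Jchain and Sdc1 of the same list, named after their values were seen, did not pass, with log2 ratios of 0.92 and 0.26. Jchain had 70.3 scaled counts in control against 133 in dKO, and Sdc1 had 23.4 against 28. The part of plasma cells in the receptors' differences was not tested. The stromal and endothelial list, 8 genes, stood at 4828 and 4574, most of it Pecam1. Reads of the Y-linked gene Kdm5d lay in 1 of the 2 control libraries (285 of 288 reads), and its dKO mean was 2.56 scaled counts.

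Of the 9 receptor genes, 5 passed the authors' test at an adjusted p under 0.05, 4 lower and 1 higher in dKO, and 4 did not pass. Ccr6, Cxcr6, Ccr2 and Ccr7 fell and Cxcr3 rose, with log2 ratios from -2.00 to 1.53 and a median of -0.44 over the 9. Over all 31641 genes with a p, 6.56% passed, 3.18% lower and 3.38% higher. All 9 receptor genes had a mean of 10 or more scaled counts, and among the 15446 genes at that level 13.3% passed, 6.48% lower and 6.8% higher, with a median log2 ratio of -0.01. The receptors were chosen with results of these data known, so the comparison of these shares is a description. In bulk RNA, fewer cells that carry a receptor and less RNA per cell cannot be told apart.

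**Figure D1:**
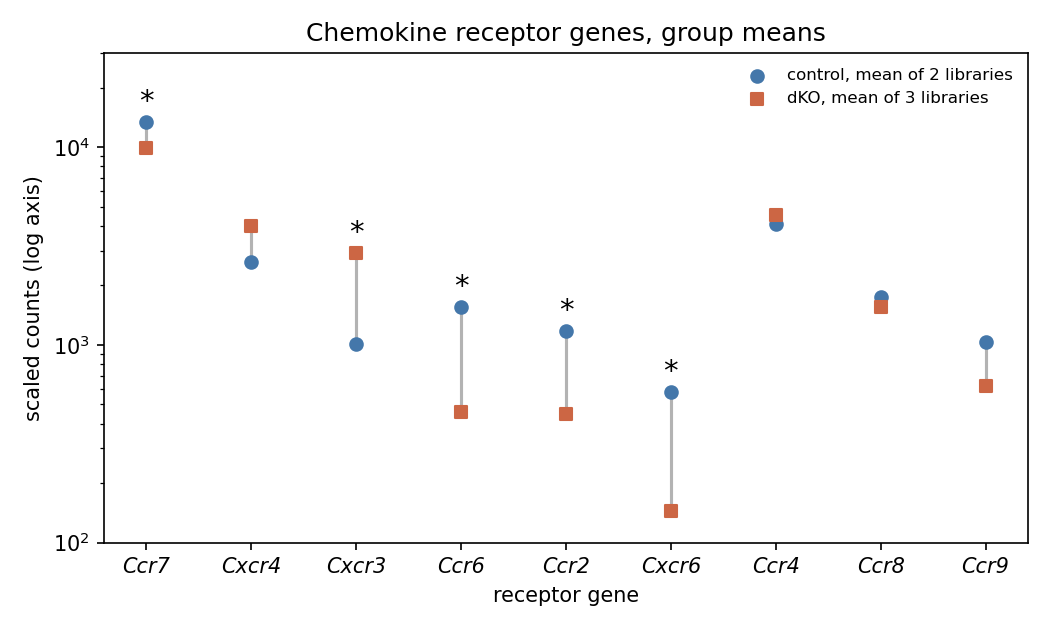
Group means of the 9 receptor genes in scaled counts on a log axis, control (mean of 2 libraries) as circles and dKO (mean of 3) as squares, with asterisks for an adjusted p under 0.05. Cxcr3 lies higher in dKO (2925 against 1010), and Ccr6, Ccr2 and Cxcr6 lie lower by the widest gaps.

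Per length, Ccr7 was the leading transcript among the 9 receptor genes in both groups. Other chemokine receptors, Cxcr5 among them, were not ranked per length. Scaled counts per kilobase of exon were 6793 for Ccr7 in control, 1515 for Ccr8, 1468 for Ccr4, 1451 for Cxcr4, 766 for Ccr6, 584 for Cxcr3, 306 for Cxcr6, 220 for Ccr9 and 184 for Ccr2. Ccr8, Ccr4 and Cxcr4 were close, and without library values for all genes their order cannot be set against their spread. In dKO the levels per kilobase were 5012 for Ccr7, 2204 for Cxcr4, 1690 for Cxcr3, 1640 for Ccr4, 1338 for Ccr8, 225 for Ccr6, 132 for Ccr9, 76.7 for Cxcr6 and 70.3 for Ccr2. Cxcr3 thus moved from the sixth to the third place. Of the summed level of the 9 genes per kilobase, Ccr7 made up 51.1% in control and 40.5% in dKO, and Cxcr3 4.39% and 13.6%.

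Some group means could be taken apart into their libraries. A mean over the 2 control libraries is a sum of whole reads of which each is worth a fixed step per library, and all 19895 control means above 0 and below 399 had exactly 1 whole-read solution within 6e-05. The size factors so found were 1.286 for the deeper and 1.092 for the shallower control library, and the deeper one held the Y-linked reads. Above 399, adding 1028 reads to the deeper library and taking 873 from the shallower leaves the mean the same, so several solutions can exist and the mean does not tell which is true. They are given here for genes with a control mean under 2000. The solutions need not be equally likely, so a count of them is not a probability. Means of the 3 dKO libraries were not solved at the receptors' levels, so dKO stays a single value and no test over libraries was possible.

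Among receptors that keep cells in lymphoid tissue, Ccr7, whose ligands CCL19 and CCL21 draw T cells into the lymph node (chromosome 11, 99144196 to 99155077, GRCm38), fell by a small step. Its mean went from 13437 scaled counts to 9913, a log2 ratio of -0.44 (adjusted p 0.012, DESeq, the authors' deposited table). With 33 whole-read solutions, its control libraries cannot be told from the mean. Cxcr4, the CXCL12 receptor (chromosome 1, 128588199 to 128592293), stood at 2624 scaled counts in control and at 3984 in dKO, and this log2 ratio of 0.60 did not pass (raw p 0.0771, adjusted p 0.496 in the authors' deposited table). Its control mean has 7 solutions, so the dKO mean cannot be placed against the 2 libraries.

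Cxcr3, the receptor for the interferon-induced chemokines CXCL9, CXCL10 and CXCL11, rose. Its mean of 1010 scaled counts in control stood against 2925 in dKO, a 2.9-fold difference (log2 ratio 1.53, adjusted p 3.09e-08 in the authors' deposited table), the smallest adjusted p of the 9 genes. The whole-read solutions gave its 2 control libraries as 815 and 1206, as 1614 and 406, or as 15.5 and 2005 scaled counts, the deeper library named first. In each of the 3 solutions the dKO mean lay above both control libraries. With a 2.9-fold difference between the means this holds for any split over 2 libraries. The solutions thus add nothing here to the group means. Cxcr3 lies on chromosome X (101731535 to 101734269, minus strand, GRCm38), and the control group included the library with Y-linked reads. The part of sex in the difference was not tested. The stretch upstream of its start, from RefSeq (GRCm38.p6), is shown because it holds the E-box form CACCTG, here in capitals and 116 bases before the RefSeq start. The bases run 5′ to 3′ on the minus strand at chrX:101734248-101734397, from 250 to 101 bases before that start, and the gene's longer annotated first exon begins within them, so the motif lies just inside that exon.
Cxcr3: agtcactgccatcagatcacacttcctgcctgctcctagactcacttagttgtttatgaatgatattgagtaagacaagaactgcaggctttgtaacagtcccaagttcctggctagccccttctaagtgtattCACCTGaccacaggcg

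Ccr6, the receptor for CCL20 that marks T helper 17 cells and cells of the gut wall (chromosome 17, 8236043 to 8257127), had the smallest adjusted p of the receptors that fell. It went from 1554 scaled counts in control to 456 in dKO, a 3.41-fold difference (log2 ratio -1.77, adjusted p 0.0008 in the authors' deposited table). Its 2 control libraries were, in deeper and shallower order, 1217 and 1891, 2016 and 1092, 417 and 2691, or 2815 and 293 scaled counts. The dKO mean lay below both libraries in 2 of these 4 solutions and between them in the other 2.

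Cxcr6, the receptor for CXCL16 on tissue-resident and effector T cells (chromosome 9, 123806477 to 123811754), had the lowest log2 ratio of the 9 genes. Its mean went from 579 scaled counts in control to 145 in dKO, a log2 ratio of -2.00 (adjusted p 0.0147 in the authors' deposited table). This control mean has a single solution, 970 reads in the deeper and 441 in the shallower library, or 754 and 404 scaled counts. The 2 control libraries thus differed 1.87 times from each other, and the dKO mean lay below both. Against the deeper library alone the log2 ratio was -2.38, and against the shallower -1.48. Cxcr6 lies within the span of Fyco1, a gene of vesicle transport on the opposite strand, and strand use in the authors' counting was not given in the sources used here. Fyco1 also fell, from 2053 to 1350 scaled counts (log2 ratio -0.61, adjusted p 0.0004 in the authors' deposited table). The part of shared reads was not tested.

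Ccr2, the CCL2 receptor of monocytes and of effector T cells (chromosome 9, 124101950 to 124113557), fell from 1175 to 449 scaled counts, a log2 ratio of -1.39 (adjusted p 0.0016 in the authors' deposited table). Its control libraries were 954 and 1397, 1753 and 598, or 155 and 2196 scaled counts. The dKO mean lay below both in 2 of these 3 solutions and between them in 1. CD8, natural killer and innate lymphoid cells are cells other than regulatory T cells that carry these receptors. The 9 genes of their list summed to 2035 in control and 2405 in dKO. Gzmb alone, at 365 and 1209, rose by more than this sum. Of the 9 genes 0 were called by DESeq and none stood at 0. An unadjusted p under 0.05 was found for 3 of them, Kit, Il23r and Nkg7, all lower in dKO. These 3, named after their values were seen, stood at 111, 16.5 and 791 scaled counts in control. In dKO they stood at 21.5, 5.16 and 383 (adjusted p 0.178, 0.219 and 0.303 in the authors' deposited table). The myeloid list had 0 of 9 genes called, and only 3 of the 9 had a mean of 10 or more scaled counts. The part of such cells in the falls of Ccr6, Cxcr6 and Ccr2 was not tested.

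**Figure D2:**
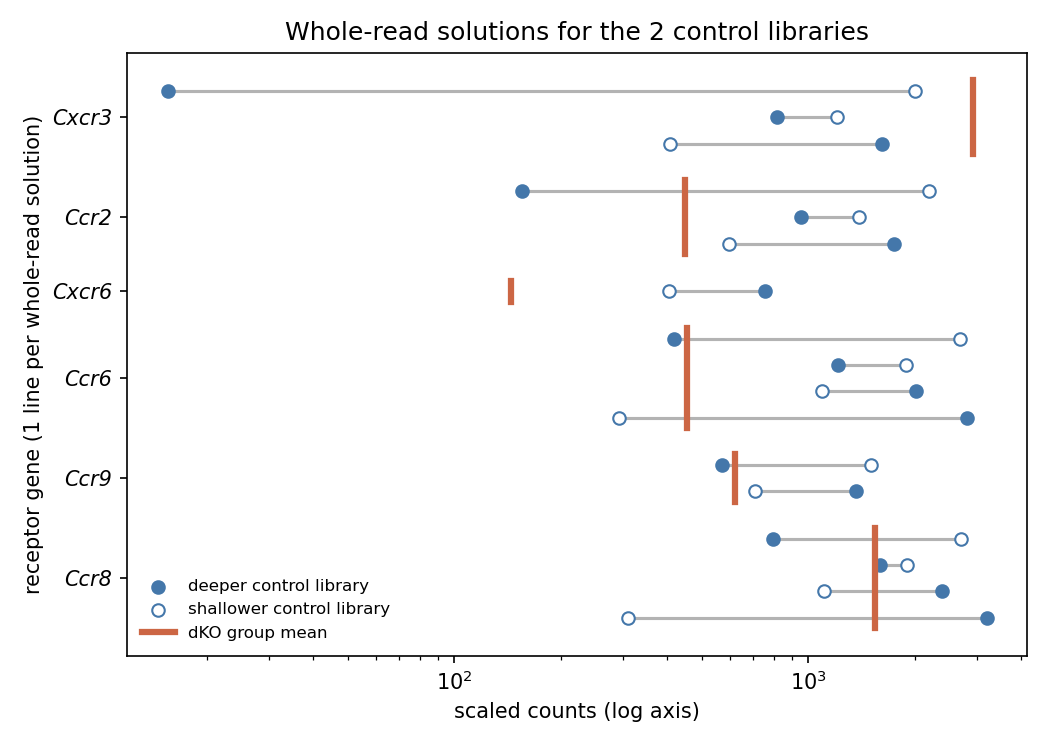
Scaled counts (log axis) of the deeper (filled) and shallower (open) control library under each whole-read solution, with the dKO group mean as a vertical bar, for 6 receptor genes. The bar lies outside the control pair in every solution for Cxcr3 and Cxcr6, and between the pair in 1 of 3 solutions for Ccr2, 2 of 4 for Ccr6, 1 of 2 for Ccr9 and 3 of 4 for Ccr8. For Cxcr3 the group means alone fix this, whatever the split of the control mean.

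Upstream bases of Cxcr6 and of the second RefSeq start of Ccr6 are shown as examples from genes that fell, with E-boxes in capitals. Neither stretch holds the form found for Cxcr3. Both stretches come from RefSeq (GRCm38.p6), plus strand, and cover the 250 bases before each start. They lie at chr9:123806227-123806476 for Cxcr6 and chr17:8242276-8242525 for Ccr6. The Ccr6 stretch lies inside the annotated gene and outside its exons. The window of the first RefSeq start of Ccr6 holds no E-box and is not shown. That of Ccr2, which also fell, holds the E-box CACTTG and is not shown either. A link between motif and direction was not tested.
Cxcr6: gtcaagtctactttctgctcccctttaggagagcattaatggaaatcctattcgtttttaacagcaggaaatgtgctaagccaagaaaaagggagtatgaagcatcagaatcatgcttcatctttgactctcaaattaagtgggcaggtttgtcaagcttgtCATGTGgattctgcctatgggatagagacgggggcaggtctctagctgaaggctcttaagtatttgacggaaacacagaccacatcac
Ccr6: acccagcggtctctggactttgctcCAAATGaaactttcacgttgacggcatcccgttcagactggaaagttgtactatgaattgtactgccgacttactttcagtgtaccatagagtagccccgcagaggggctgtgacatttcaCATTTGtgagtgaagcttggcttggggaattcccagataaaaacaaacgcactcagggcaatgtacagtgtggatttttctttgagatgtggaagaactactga

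Windows of RefSeq starts were found for 8 of the 9 receptor genes, with 2 for Ccr6 and no entry for Ccr7. The E-box CANNTG is a pattern that is the same on both strands. It stood in the 250 bases before a start in 6 of the 8 genes. By window, 6 of the 9 receptor windows held one, a like share to the 66.2% of all 32851 windows. CAGGTG, or on the other strand CACCTG, was found for 3 genes, Cxcr3, Ccr4 and Ccr9. These were 3 of the 9 receptor windows, against 17.2% of all windows. Of these 3 genes 1 rose and 2 did not pass the test. CAGCTG was found for 0 genes, against 13% of all windows. Cxcr4, Ccr8 and the first RefSeq start of Ccr6 had no E-box in this window.

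Receptors typical of activated and skin-seeking regulatory T cells did not pass the test. Ccr4, a receptor for CCL17 and CCL22 (chromosome 9, 114490316 to 114496544), stood at 4091 scaled counts in control and at 4570 in dKO, a log2 ratio of 0.16 (adjusted p listed at 1 in the authors' deposited table). Ccr8, the CCL1 receptor (chromosome 9, 120092133 to 120094906), had 1751 and 1547 scaled counts, a log2 ratio of -0.18 (adjusted p 0.906 in the authors' deposited table). The dKO mean of Ccr8 lay below both control libraries in the solution where they stood closest, at 1595 and 1907 scaled counts. It lay between them in the other 3 of 4 solutions, where they differed by 2.16 to 10.4 times. A p above the threshold does not show that these levels were alike.

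Ccr9, the receptor for the intestinal chemokine CCL25 (chromosome 9, 123678439 to 123783457), stood at 1040 scaled counts in control and at 623 in dKO (log2 ratio -0.74, raw p 0.106, adjusted p 0.607 in the authors' deposited table). Its control libraries were 571 and 1509 or 1370 and 709 scaled counts, so they differed from each other by 2.64 or 1.93 times, which is more than the 1.67 times between the group means. Its row spans 6 other genes of the table, among them Lztfl1 (1034 and 818 scaled counts) and a pseudogene at 8114 and 8259. Its transcripts share a stretch of 1878 bases with another gene annotated at the same place. For Ccr2, Ccr6, Ccr7, Ccr8, Cxcr3, Cxcr4 and Cxcr6, a search of the annotated mouse transcripts (GENCODE M21) found no stretch of 100 bases or more at 95% identity or above in another gene. For Ccr4 the longest such stretch had 113 bases.

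Of the receptor genes 5, namely Ccr4, Ccr8, Ccr9, Cxcr6 and Ccr2, lie on chromosome 9, and the last 3 belong to a cluster of receptor genes. Other members of that cluster were also measured. In the authors' deposited table Xcr1, a receptor of cross-presenting dendritic cells, went from 47 scaled counts to 13.3 (adjusted p 0.0012), and Ccr3, a receptor of eosinophils and T helper 2 cells, had 67.8 and 22.3 (adjusted p 0.0004). Both fell, as did Cxcr6 before them and Ccr2 after them along the chromosome. The control libraries of Ccr3 had single values of 66.1 and 69.6 scaled counts and those of Xcr1 53.6 and 40.3, and each dKO mean lay below its pair. Ccr1, between Xcr1 and Ccr3, had 10.5 and 7.76 scaled counts and did not pass (adjusted p listed at 1 in the authors' deposited table).

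**Figure D3:**
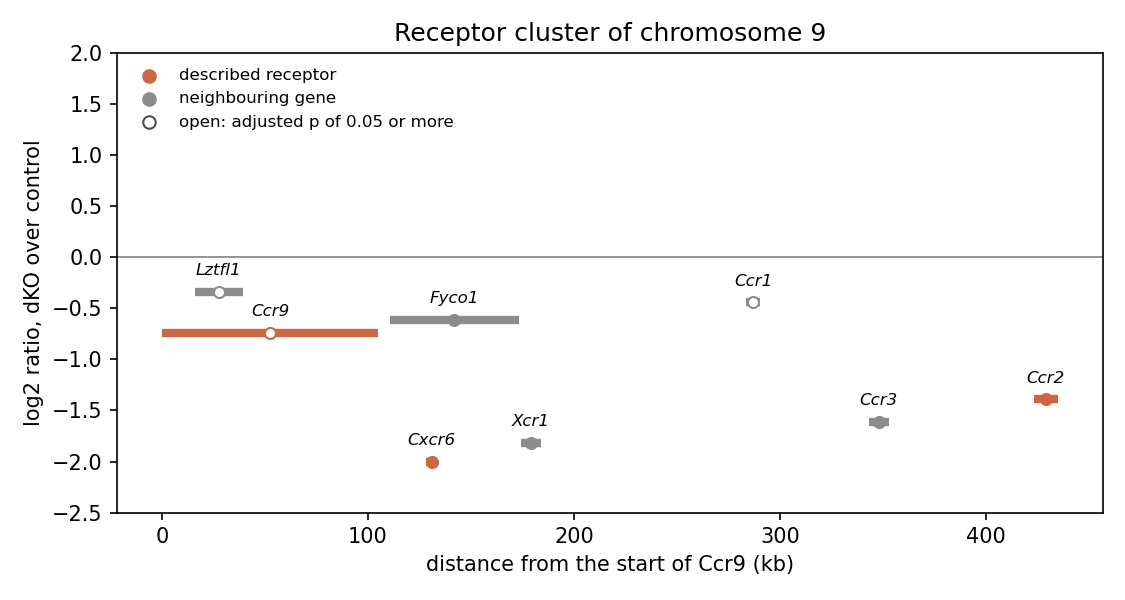
Log2 ratio of dKO over control for 8 genes of the chromosome 9 receptor cluster, not all of its genes, against distance from the start of Ccr9 in kb, with the horizontal bars showing each gene's span and open symbols an adjusted p of 0.05 or more. Cxcr6, Xcr1, Ccr3 and Ccr2 lie between -2.00 and -1.39, and Ccr9, Lztfl1 and Ccr1 carry open symbols.

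The unnumbered pair gives a second look at the same genes in other libraries, with 1 library per label and so no test of the genotypes. All directions in the pair follow the titles, and if the genotype tags hold instead, each of them turns. Its values are FPKM, fragment counts normalised to transcript length and library size, summed over the transcripts of a gene. Id2 had 18.6 FPKM in the library labelled control and 9.69 in the library labelled dKO, and Id3 had 160 and 221, a smaller difference for Id2 than in the numbered libraries. The library labelled control held the receptors in the order Ccr7 (283 FPKM), Ccr6 (42.7), Ccr8 (41.2), Ccr4 (35.3), Cxcr3 (35.1), Cxcr4 (25), Ccr2 (11.1), Cxcr6 (7.68) and Ccr9 (6.91). Ccr7 led as in the numbered libraries, while Ccr6 stood higher in the order.

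Cxcr3 had 35.1 FPKM in the library labelled control and 89.6 in the library labelled dKO, a log2 ratio of 1.33 with 1 FPKM added to both. Ccr2 had 11.1 and 2.54 FPKM (log2 ratio -1.78) and Ccr6 had 42.7 and 16 (log2 ratio -1.36), with 1 of its 7 transcript entries giving 32.7 and 11.2 of this. These 3 of the 9 receptors differed by a log2 ratio of 1 or more in size, 2 lower and 1 higher, against 5.83% of the 8679 genes with 5 FPKM or more in a library, 3.16% lower and 2.67% higher. Read by the genotype tags, 1 would be lower and 2 higher. Cxcr6 had 7.68 and 3.63 FPKM (-0.91), Ccr4 35.3 and 24.6 (-0.50), Ccr7 283 and 251 (-0.17), Ccr8 41.2 and 38.6 (-0.09) and Cxcr4 25 and 36.2 (0.52 on the same log2 scale). None of the receptors' entries reached a q under 0.05 in the authors' deposited table of the pair (Cuffdiff, 1 library against the other), where 23 of 27901 entries did.

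Ccr9 summed to 6.91 and 5.25 FPKM (log2 ratio -0.34), and its 2 transcript entries went apart, from 2.35 to 0.000685 in one and from 4.56 to 5.24 in the other. The sign of the log2 ratio was the same in the pair and in the numbered libraries for 8 of the 9 receptors, the exception being Ccr4. Over 8026 genes measured in both it was the same for 71.1%, and for 92.7% of the 1200 of these that passed the test in the numbered libraries. Read by the genotype tags, the sign would be the same for 1 of the 9 receptors, for 28.9% of all genes compared and for 7.33% of those that passed. Outside the 9 genes, Ccr3 was low in the pair, at 0.851 and 0.175 FPKM.

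**Figure D4:**
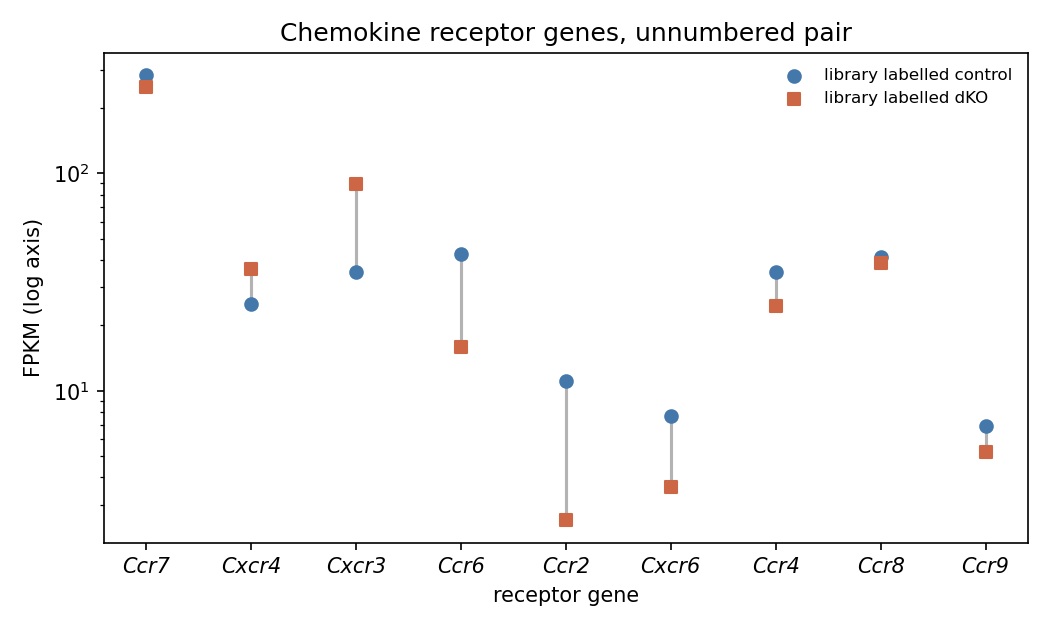
FPKM (log axis) of the 9 receptor genes in the unnumbered library labelled control (circles) and the one labelled dKO (squares). Cxcr3 lies higher in the library labelled dKO (89.6 against 35.1), and Ccr2 and Ccr6 lie lower by the widest gaps.

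Other genes of the chemokine system were called in both directions, as were genes in general. Over all genes with a p 6.56% were called, and 13.3% of those with a mean of 10 or more. The counts per list are a description beside these shares. Among 10 further chemokine receptors, the authors' deposited table called 2 higher and 2 lower. Cxcr5, the receptor for the B cell follicle, was among the higher, and Ccr3 and Xcr1 were the lower. Of 5 atypical receptors, which bind chemokines without G protein signalling, 0 were called (DESeq, the authors' deposited table) and 0 had an unadjusted p under 0.05. Ccrl2 had 454 and 378 scaled counts there, and Ackr4, the next by mean, 4.09 and 4.06.

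Of 16 genes for ligands of the 9 receptors, 1 fell and 0 rose by DESeq in the authors' deposited table, and at an unadjusted p under 0.05 these counts were 2 and 0. The one that fell was Ccl20, the ligand of Ccr6, from 137 to 16.1 scaled counts (log2 ratio -3.09, adjusted p 6.54e-19), with control libraries of 150 and 124. Transcripts of the receptor and of its ligand were thus both lower in dKO. Cxcl10, a ligand of Cxcr3, had 598 scaled counts in control and a log2 ratio of -1.55, which did not pass (adjusted p 0.0629 in the authors' deposited table), and is named after its value was seen. Of the 16 ligand genes 9 had means under 10 scaled counts. Over all genes with a p, 3.18% were called lower and 3.38% higher.

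Downstream of the receptors, the authors' deposited table called 3 of 27 signalling genes higher, 2 lower and 22 neither. Among all genes with a mean of 10 or more, 6.8% were called higher and 6.48% lower. Both beta-arrestin genes, whose products switch off and internalise activated receptors, fell: Arrb1 from 2642 to 1265 scaled counts (adjusted p 8.48e-13) and Arrb2 from 6938 to 4941 (adjusted p 0.005 in the authors' deposited table). Pik3r5, a regulatory subunit of the phosphoinositide 3-kinase that G proteins activate, rose from 2894 to 5139, and Rapgef1, an exchange factor for the integrin-activating GTPase Rap1, from 8985 to 14717 (adjusted p 1.03e-07 and 3.72e-06 in the authors' deposited table). Adrbk1, a receptor kinase gene named after its value was seen, rose from 26028 to 34268 (adjusted p 0.0406 in the authors' deposited table). Arrb1, Arrb2 and Rapgef1 overlap another gene in the table.

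Among 19 transcription factor genes linked to the receptors, the authors' deposited table called 2 higher, 2 lower and 15 neither. The share called in either direction was 13.3% over all genes with a mean of 10 or more. Klf2, which holds T cells in a quiescent, recirculating state, fell from 10559 to 6818 scaled counts (adjusted p 5.32e-05 in the authors' deposited table). Tcf3, itself an E protein gene, rose from 3194 to 5071 and Prdm1 from 1179 to 2053 (adjusted p 2.90e-05 and 0.0124 in the authors' deposited table). The median log2 ratio was -0.14 for these 19 genes and 0.04 for the 26 signalling genes with a mean of 10 or more, beside -0.01 over all genes at that level.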

How the data were processed

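The deposited table of the numbered libraries holds signal values, which the authors, per the file headers, averaged over 3 dKO or 2 control libraries. The header calls them raw counts, but they are fractional. The submitters' processing notes name RSEM and DESeq without versions, TopHat 1.4.0, Cuffdiff (version given as 0.0.6) and the builds mm9, mm10 and GRCm38, without their roles. The log2 ratios and the raw and adjusted p-values are those deposited by the authors. Recomputing them from the other deposited columns gave largest differences of 8.22e-05 and 0.00124. No test per gene was added, as library values are needed for one. The deposited FPKM values of the pair stand in a Cuffdiff table, per the file headers. Transcripts were matched to genes by RefSeq accession (96% of 27901 entries) and log2 ratios used a pseudocount of 1 FPKM. Whole reads of the control libraries were solved from the steps of their means, tested on simulated data. That all solutions of a mean are listed, under 2000 scaled counts, was chosen after seeing the data. All 8250 control means from 399 to 10000 also lay within 6e-05 of a whole-read value, where 27% of random values would. Control libraries were on average 1.32 times deeper than dKO libraries. Near-identical stretches were searched with blastn 2.17.0. Python 3.11.15 with pandas 2.3.3 was used.

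The 9 genes and the 12 other gene lists were chosen with earlier results of these data known. The text names all 9 receptors, up to 4 genes of every other list past an adjusted p of 0.05, or the 2 with the highest mean where none passed, Id2 and Id3 as targets and the neighbours of the receptor cluster. Some genes that this rule takes are not reported here. Of lists with 0 called, the genes so taken were Cd79b (894 in control and 1006 in dKO) and Cd79a (71.2 and 51.1) for B cells, Itgam (73.7 and 95) and Lyz2 (25.3 and 21.2) for myeloid cells, Gzmb (365 and 1209) and Cd8b1 (663 and 687), and Pecam1 (4674 and 4397) and Col1a1 (94.9 and 125).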

Additional observations from a re-analysis of the deposited data

How the results depend on the processing

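With raw p-values adjusted again over genes with a mean of 10 or more, or with an adjusted p under 0.1, the same counts of receptors were called, 4 lower and 1 higher. With an adjusted p under 0.01 there were 2 lower (Ccr6 and Ccr2) and 1 higher, and 669 genes lower in all. Without genes that overlap another gene, 594 genes were lower and 644 higher, the receptors numbered 3 lower and 1 higher since Cxcr6 and Ccr9 leave the table, and the calls were 0 lower among signalling genes, 1 lower among transcription factors and 0 higher among regulatory T cell markers. Adjusted over genes with a mean of 10 or more, 2 ligand genes were lower. No sign of a receptor's log2 ratio in the numbered libraries changed with scaling to the same sum, centring on the median or a pseudocount of 1. In the pair, Ccr9 had a log2 ratio of 0.17 from its highest transcript alone, opposite to the sum, and Ccr2 one of -1.10 with 5 FPKM added. With the pair read by its genotype tags, an alternative added after seeing the data, 1 receptor had the same sign as in the numbered libraries, 1 was lower and 2 were higher by a log2 ratio of 1 or more. In the 100 bases before a start, 3 receptors had an E-box and 1 had CAGGTG or CACCTG. Leaving out either control library moved Cxcr6 between -2.38 and -1.48. Calls without a library could not be had, and no dKO library could be left out. No paired analysis was possible because the deposited table holds only means per group.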
